A study of Homo sapiens with 6 samples.

Results

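THRA, THRB, RXRA, RXRB, NCOR1, TBL1X, TBL1XR1, and GPS2 encode the thyroid hormone receptors, their retinoid X receptor partners, and subunits of the NCOR corepressor complex. These 8 genes of the 46427 in the table were picked by symbol, with the measured values in view: THRB was higher and TBL1XR1 was lower after knockdown of the long noncoding RNA MALAT1 in each of 3 cell lines. The values of the 8 genes in that comparison are therefore a description and carry no test.

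RNA was sequenced from 3 human non-small cell lung cancer (NSCLC) lines, H460, H1299, and A549, with 1 control library and 1 si-MALAT1 library per line, 6 libraries in all. The si-MALAT1 cells were transfected with small interfering RNA against MALAT1. The controls are labelled as having no treatment, while the methods also describe control siRNA and do not say which cells were sequenced. All cells grew in serum-containing medium, and no thyroid hormone treatment is described.

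Thyroid hormone receptors are nuclear receptors that sit on DNA with or without their ligand, triiodothyronine (T3). On many target genes they pair with a retinoid X receptor. Without hormone the pair holds a corepressor complex in which NCOR1 is a scaffold, HDAC3 removes acetyl groups from histones, TBL1X and TBL1XR1 are WD-repeat subunits that bind histones and take part in the exchange of corepressors for coactivators, and GPS2 is a small subunit that binds NCOR and the TBL1 proteins. Hormone releases this complex and brings in coactivators such as the NCOA proteins.

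The transcript of TBL1XR1 differed from the others in its 3' untranslated region (UTR). An earlier look at these data had listed the 7-base words TGAATCA and ATGAATC among genes that were lower after si-MALAT1, so the 3' UTRs of the 8 genes were searched for both words on the strand of the transcript; the words overlap by 6 bases. The 3' UTR of TBL1XR1, taken from the NM transcript in which it is longest, held 6 copies of TGAATCA and 0 of ATGAATC. Those of the other 7 genes, chosen alike, held 0 of either. The 6 stretches, each 29 bases long, are shown 5' to 3' as in the transcript, with the word in capitals. They lie on the minus strand of chromosome 3 in GRCh38, in the 3' UTR of TBL1XR1.
Site 1, chr3:177025123-177025151: tttctccccttTGAATCAgcagacaccat
Site 2, chr3:177024963-177024991: aagtaagggagTGAATCAgtttcttgttt
Site 3, chr3:177022551-177022579: aaaggaaaactTGAATCAatactcattga
Site 4, chr3:177021635-177021663: cccccttctccTGAATCAgcagggatgga
Site 5, chr3:177020783-177020811: caactgtaattTGAATCAgatctgaaaga
Site 6, chr3:177020116-177020144: ccaattatagtTGAATCAttttctctctt

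The words began 358, 518, 2930, 3846, 4698, and 5365 bases past the end of the coding sequence, in a 3' UTR of 6154 bases. Either word occurred in 18.7% of 12225 genes with a 3' UTR and a mean count of at least 50. Long 3' UTRs hold it more often: among 773 genes with a 3' UTR of similar length to that of TBL1XR1 (the shorter at least 0.8 times the longer) the share was 51.0%. TBL1XR1 was the single gene of the 12225 with as many as 6 copies. THRB, whose 3' UTR of 5731 bases is nearly as long, held none, where 48.6% of 904 genes with 3' UTRs of like length held at least 1. The letters are a description of the sequence, and whether anything binds there was not tested. Since both the words and TBL1XR1 were picked from the same comparison, their meeting here is no independent support of either.

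**Figure D1:**
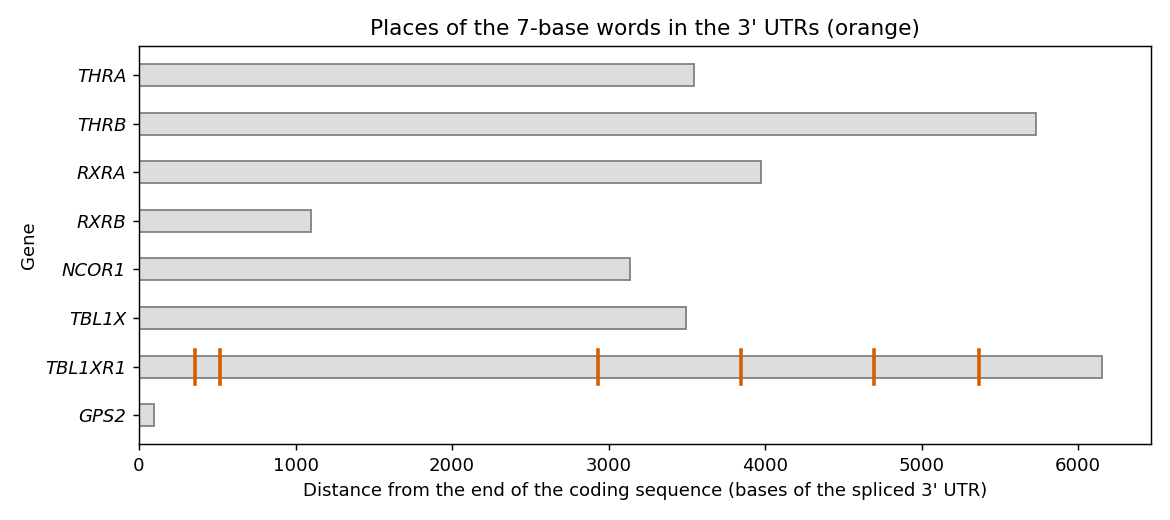
Grey bars show the 3' UTR of every gene, with its length in bases from the end of the coding sequence on the x axis and each copy of TGAATCA or ATGAATC as an orange line. All 6 lines lie in the bar of TBL1XR1, from 358 to 5365 bases, and the other 7 bars carry none.

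MALAT1 itself was at 20.1% of its control level in H460, and H1299 kept 12.9% and A549 13.9%. The libraries held 42506818 to 68515992 counts, with both A549 libraries the smallest. The epithelial keratins KRT8 and KRT18 were high in all 6 libraries (123 to 2918 TPM, a level scaled for transcript length and depth), the leukocyte genes PTPRC and CD3E had 0 reads while CD68 of that list had 9.4 to 47.3 TPM, and the summed endothelial markers stayed at or under 0.0956 TPM, while CDH1 passed 1 TPM in A549 alone and 1 of 4 lung lineage markers, NAPSA, passed 1 TPM, in A549 (1.14 and 1.79). Other epithelial markers were less even between lines. Both KRT19 values of H460 were high (550 and 399 TPM), while H1299 held 0.256 and 0.23 TPM, and A549 0.888 and 2.23 TPM. EPCAM, like CDH1, passed 1 TPM in A549 alone (3.61 and 8.04 TPM). CDKN2A, looked at after the values were seen, had 2938 and 2679 reads in H1299 and 0 in H460 and A549. Each mean over the lines is also given without H1299, and the comparison of A549 with H460 compares the libraries of the other lines.

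THRA encodes the receptor TR alpha, and in H460 it had 1068 reads in control and 1284 in si-MALAT1 cells, while H1299 had 592 and 668 and A549 had 1306 and 1538. Its level was highest in A549 and lowest in H1299 in both conditions. On the scale of log2(scaled count + 1) H460 changed by 0.35 (95% counting interval 0.23 to 0.47), H1299 by 0.30 (0.14 to 0.47), and A549 by 0.09 (-0.02 to 0.20). The mean was 0.25 ± 0.14 (SD, n = 3 lines), 0.22 without H1299. The intervals cover counting error only, since each line had 1 library per condition, and in these bulk samples fewer cells of a kind and less RNA per cell cannot be told apart. THRA shares 473 exonic bases with NR1D1 on the opposite strand, which had a mean of 179 reads, and whether the counting used strand is not given in the sources used here.

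THRB encodes TR beta, and it was the lowest of the 8 genes in every library. Its counts in control and si-MALAT1 cells were 68 and 98 in H460, then 53 and 79 for H1299 and 335 and 602 for A549. The si-MALAT1 library was the higher of the pair in each line, and both A549 libraries were above all 4 others. Scaled for depth, THRB in si-MALAT1 cells was at 152% of control in H460 and at 162% in both H1299 and A549. The log2 changes were 0.60 (0.15 to 1.08), 0.69 (0.19 to 1.24), and 0.70 (0.51 to 0.90), with a mean of 0.66 ± 0.06 (SD, n = 3 lines), 0.65 without H1299. The wide intervals in H460 and H1299 go with counts under 100. THRB was higher by at least 1.5-fold in the 3 lines, as 1 of 212 among 17834 genes with at least 1 read in every library (1.19%). It was just past that fold in H460 (0.60 against a threshold of 0.58), and it fell short there with TMM scaling (0.57) or with 10 added in place of 1 (0.54).

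RXRA encodes RXR alpha, a common heterodimer partner of the thyroid hormone receptors. RXRA had 3358 and 2930 reads in H460, then 860 and 678 for H1299 and 1555 and 1761 for A549. The level in H1299 was the lowest in both conditions. The log2 changes were -0.12 (-0.19 to -0.04), -0.21 (-0.36 to -0.07), and 0.03 (-0.06 to 0.13), with a mean of -0.10 ± 0.12 (SD, n = 3 lines), -0.04 without H1299, so the direction differed between A549 and the other lines. None of them reached a fold of 1.5.

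RXRB encodes RXR beta, and its counts were 1042 and 1105 in H460, then 1707 and 2426 for H1299 and 705 and 921 for A549. The si-MALAT1 library was above its control in each line after scaling, with log2 changes of 0.17 (0.04 to 0.29), 0.64 (0.55 to 0.73), and 0.24 (0.10 to 0.38). The mean was 0.35 ± 0.25 (SD, n = 3 lines), and it was 0.20 without H1299. H1299 was the single line in which RXRB passed 1.5-fold. RXRB shares 125 exonic bases with SLC39A7 on the opposite strand, with a mean of 4330 reads for SLC39A7. The third RXR gene, RXRG, had 0 reads in all 6 libraries.

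NCOR1 is the scaffold of the corepressor complex. It had 9598 and 7822 reads in H460, then 13930 and 17867 for H1299 and 7083 and 8232 for A549. The log2 changes were -0.21 (-0.26 to -0.17), 0.49 (0.46 to 0.52), and 0.07 (0.03 to 0.12), so that si-MALAT1 cells were lower in H460 and higher in H1299. The mean of 0.12 ± 0.35 (SD, n = 3 lines) was smaller than the spread between lines, and without H1299 it was -0.07. NCOR1 shares 248 exonic bases with TTC19 on the opposite strand.

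TBL1XR1 had the largest change of the 8 genes in each line. Its counts in control and si-MALAT1 cells were 15418 and 8254 in H460, then 13892 and 6280 for H1299 and 7781 and 3609 for A549. Each si-MALAT1 library was below the control of its own line, and in TPM the 3 si-MALAT1 libraries (13.5 to 19.1) lay below the 3 controls (32.3 to 38.0). Scaled for depth, si-MALAT1 cells of H460 kept 56.7% of the TBL1XR1 level, those of H1299 49.5%, and those of A549 42.0%. The log2 changes were -0.82 (-0.86 to -0.78), -1.01 (-1.06 to -0.97), and -1.25 (-1.31 to -1.20), with a mean of -1.03 ± 0.22 (SD, n = 3 lines), -1.04 without H1299. A fold of 1.5 in the same direction in the 3 lines was passed by 228 genes on the lower side (1.28% of 17834), and 1.26% of genes had a mean below that of TBL1XR1.

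TBL1X, the X-linked paralogue of TBL1XR1, had 3049 and 2690 reads in H460, then 1110 and 1139 for H1299 and 1302 and 1608 for A549. Its log2 changes of -0.10 (-0.17 to -0.02), 0.17 (0.05 to 0.29), and 0.16 (0.05 to 0.27) did not reach a fold of 1.5, and their mean was 0.08 ± 0.15 (SD, n = 3 lines), 0.03 without H1299. GPS2 had 1516 and 1504 reads in H460, then 1952 and 1713 for H1299 and 1520 and 1694 for A549. Its log2 changes of 0.07, -0.06, and 0.01 all had intervals that include 0, and its mean of 0.01 ± 0.06 (SD, n = 3 lines) was the smallest of the 8, with 0.04 without H1299.

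**Figure D2:**
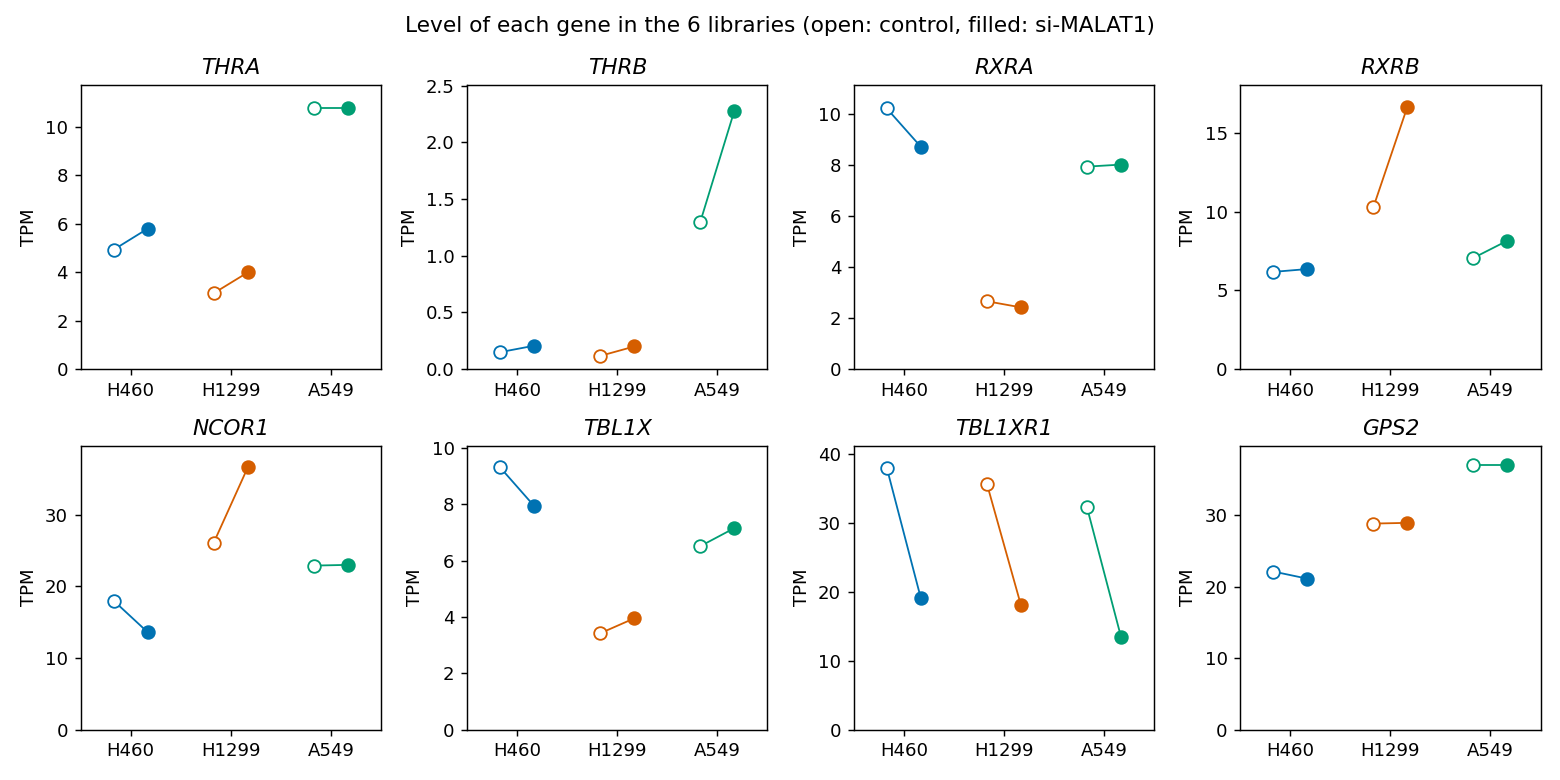
TPM (y axis, from 0) of each of the 8 genes in control (open) and si-MALAT1 (filled) libraries of the 3 lines (x axis), 1 point per library with a line joining each pair. TBL1XR1 is lower in each si-MALAT1 library, THRB is higher in each, and both THRB points of A549 stand above those of the other lines.

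**Figure D3:**
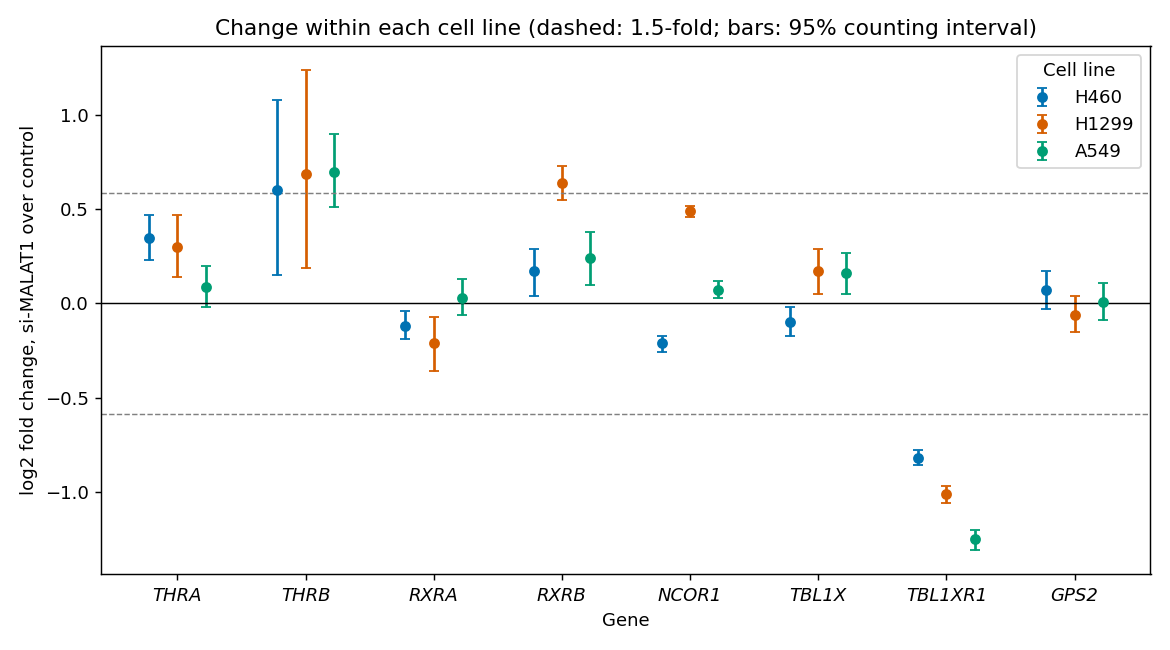
The log2 change from control to si-MALAT1 (y axis) for each gene (x axis) in the 3 lines, with 95% counting intervals as bars and dashed lines at 1.5-fold. The 3 THRB points and 1 RXRB point (H1299) lie above the upper line, and the 3 TBL1XR1 points lie below the lower line.

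Past 1.5-fold in either direction were 2 of the 8 genes for H460, 3 for H1299, and 2 for A549. The matching shares over all genes were 19.8%, 23.1%, and 22.9%. THRB and TBL1XR1 were chosen for that comparison, so nothing is read from these counts. The median change of the 8 genes on the log2 scale was -0.01 for H460, 0.24 for H1299, and 0.08 for A549, where the medians of all genes were 0.02, 0.02, and 0.01.

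Per unit of transcript length, TBL1XR1, GPS2, and NCOR1 stood above the 4 receptor genes in each control, while the corepressor subunit TBL1X lay among the receptors. In control cells TBL1XR1 had 35.3 ± 2.86 TPM (SD, n = 3 lines), GPS2 29.3 ± 7.44, and NCOR1 22.3 ± 4.13. RXRB followed at 7.83 ± 2.14 TPM, then RXRA at 6.92 ± 3.87, TBL1X at 6.41 ± 2.94, THRA at 6.29 ± 4.02, and THRB at 0.522 ± 0.677. The ranges over the 3 controls overlapped between neighbours in that order, except between NCOR1 and RXRB and between THRA and THRB. In si-MALAT1 cells TBL1XR1 had 16.9 ± 3.02 TPM, where NCOR1 had 24.4 ± 11.6. From its lowest to its highest library THRB spanned a factor of 19.9 in TPM, RXRA 4.22, THRA 3.46, and GPS2, the steadiest, 1.75.

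Paralogues did not share the change evenly. THRB made up 2.91% of the summed TPM of THRA and THRB in control cells of H460 and 3.41% in its si-MALAT1 cells, and the shares were 3.54% and 4.73% for H1299 and 10.8% and 17.4% for A549. THRA thus gave most of the receptor mRNA in all 6 libraries. TBL1XR1 made up 80.3% of TBL1X and TBL1XR1 in control cells of H460 and 70.7% in its si-MALAT1 cells, and the shares were 91.3% and 82.0% for H1299 and 83.2% and 65.3% for A549. The sum of the pair was 38.8 to 47.3 TPM in controls and 20.6 to 27.1 TPM in si-MALAT1 cells, with TBL1X at 3.42 to 9.30 TPM over the 6 libraries. RXRA made up 62.2% and 57.8% of RXRA and RXRB in H460 and 52.9% and 49.5% in A549, but 20.5% and 12.6% in H1299, where RXRB prevailed.

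**Figure D4:**
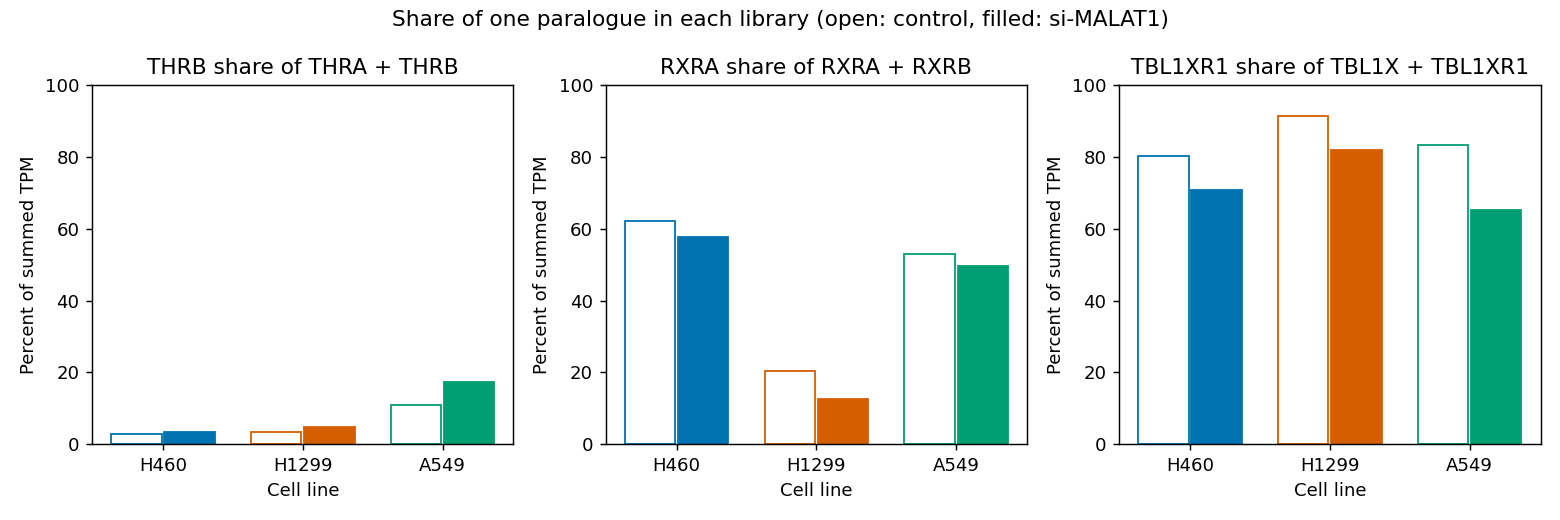
Percent of the summed TPM of a pair of paralogues (y axis, 0 to 100) given by THRB, RXRA, or TBL1XR1 in control (open bars) and si-MALAT1 (filled bars) libraries of the 3 lines (x axis), 1 library per bar. The TBL1XR1 share is lower and the THRB share higher in each si-MALAT1 library, and the RXRA share in H1299 (20.5% and 12.6%) is the lowest of the lines.

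The difference between cell lines was not used to choose the genes and was tested with edgeR over all genes, with the control and the si-MALAT1 library of each line as its 2 samples and treatment as a term. The p-values measure the spread between these libraries. Since the 2 libraries of a line differ in treatment, that spread includes what si-MALAT1 changed in some lines and not in others. No treatment was repeated within a line, and nothing in the labels says how the cultures of a line were related. Adjusted p-values under 0.05 were found for 6 of the 8 genes in each of the 3 comparisons, where the share over all genes was 50.7% for H1299 against H460, 35.3% for A549 against H460, and 47.2% for A549 against H1299.

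THRB was higher in A549 than in the other lines, by 2.85 (SE 0.261) on the log2 scale against H460 (7.21-fold, edgeR adjusted p = 0.000703) and by 3.39 (SE 0.268) against H1299 (10.5-fold, edgeR adjusted p = 0.000306). H1299 and H460 differed in THRB by -0.54 (SE 0.26, edgeR adjusted p = 0.129), which did not pass. THRA took a different order: it was lower in H1299 than in H460 by 2.16-fold (edgeR adjusted p = 0.00177) and higher in A549 than in H1299 by 3.43-fold (edgeR adjusted p = 0.000398). A549 thus had the highest mRNA level of both receptors, and the smaller THRA difference between A549 and H460 was 0.67 (SE 0.147, edgeR adjusted p = 0.0167).

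RXRA was 4.76-fold lower in H1299 than in H460 (edgeR adjusted p = 0.000113) and 3.29-fold higher in A549 than in H1299 (edgeR adjusted p = 0.000337). RXRB went the other way in H1299, 1.65-fold above H460 (edgeR adjusted p = 0.0155) and 1.67-fold above A549 (edgeR adjusted p = 0.015). TBL1X was low in H1299, 2.95-fold below H460 (edgeR adjusted p = 0.000445) and 1.96-fold below A549 (edgeR adjusted p = 0.0029). The calls for THRB in A549 and for THRA, RXRA, and TBL1X in H1299 held in all 10 alternatives run. Smaller differences between A549 and H460 also passed, for RXRA at -0.53 (SE 0.135, edgeR adjusted p = 0.0265) and for TBL1X at -0.60 (SE 0.142, edgeR adjusted p = 0.0214). These calls, those of RXRB, and that of THRA between A549 and H460 were lost in 2 to 4 of the 10.

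NCOR1, TBL1XR1, and GPS2 varied less between lines. TBL1XR1 was lower in A549 than in H460 by 0.70 on the log2 scale (SE 0.155, edgeR adjusted p = 0.0171) and lower in H1299 than in H460 by 0.49 (SE 0.155, edgeR adjusted p = 0.0404), and NCOR1 was 1.57-fold higher in H1299 than in H460 (edgeR adjusted p = 0.0333). GPS2 was higher in A549 by 1.39-fold against H460 (edgeR adjusted p = 0.0335) and by 1.33-fold against H1299 (edgeR adjusted p = 0.0418). Each of these calls was lost in 4 to 8 of the 10 alternatives.

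**Figure D5:**
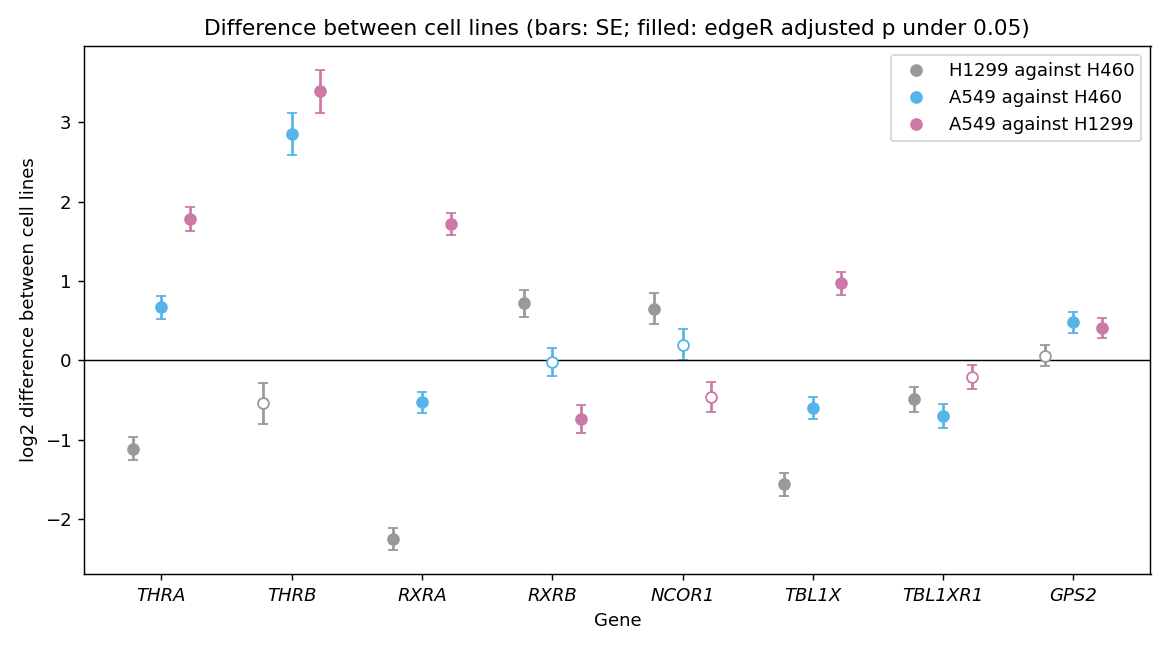
Log2 difference between 2 cell lines (y axis) for each gene (x axis) from edgeR, with SE bars, in filled symbols where the adjusted p was under 0.05. THRB in A549 stands highest, at 2.85 against H460 and 3.39 against H1299, and RXRA in H1299 against H460 is the lowest at -2.25.

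The wider pathway was followed in 5 lists of 48 genes. In the paired edgeR test of si-MALAT1 against control over the 3 lines, 0 of the 41 tested list genes passed an adjusted p of 0.05, and 14 had an unadjusted p under 0.05. Over the whole table that test called 1 of 19122 genes (0.00523%), MALAT1, and 2863 had an unadjusted p under 0.05. DESeq2 called 1140 of 13561 genes (8.41%) and 4 of 39 list genes, a share near that of all genes: NCOA3, KAT2B, SLC7A5, and SLC3A2, each of them lower. No list gene passed 1.5-fold in the same direction in the 3 lines.

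Among the corepressor partners, HDAC3, the histone deacetylase of the complex, had log2 changes of 0.27, 0.22, and 0.14 for H460, H1299, and A549, and CORO2A, an actin-binding subunit, had 0.12, -0.15, and -0.25. None of the 3 partners tested had an unadjusted p under 0.05 in edgeR.

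Of 12 coactivators, 5 had an unadjusted edgeR p under 0.05. NCOA3, a p160 coactivator of nuclear receptors, had 11067 and 6008 reads in H460, then 7100 and 4476 for H1299 and 23308 and 10553 for A549. All 3 si-MALAT1 libraries were below their controls, with log2 changes of -0.80, -0.53, and -1.29 (adjusted p = 0.108 in edgeR, 7.88e-05 in DESeq2). The acetyltransferase gene KAT2B had 897 and 567 reads in H460, then 2366 and 1202 for H1299 and 1388 and 704 for A549. Its log2 changes of -0.58, -0.85, and -1.12 were also below 0 in each line (adjusted p = 0.0897 in edgeR, 0.000182 in DESeq2). KAT2B in H460, at 66.9% of control, lay just short of 1.5-fold. PRMT1, a methyltransferase gene, was the third with a negative estimate, at -0.07, -0.55, and -0.46 (adjusted p = 0.275 in edgeR). The other 2 had positive values in each line: PPARGC1A, the coactivator gene PGC-1 alpha, at 0.65, 0.14, and 1.27 (adjusted p = 0.244 in edgeR) and NCOA1, another p160 gene, at 0.18, 0.56, and 0.42 (adjusted p = 0.247 in edgeR).

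Of 12 genes of hormone transport and deiodination, 8 were tested and 4 had an unadjusted edgeR p under 0.05. SLC7A5 and SLC3A2 encode the light and heavy chains of an amino acid transporter that also carries thyroid hormone. SLC7A5 had log2 changes of -0.54, -1.30, and -0.44 (adjusted p = 0.157 in edgeR, 0.0052 in DESeq2), and SLC3A2 had -0.21, -0.88, and -0.63 (adjusted p = 0.173 in edgeR, 0.0134 in DESeq2). SLCO1C1, another hormone transporter gene, had positive values of 3.35, 0.42, and 0.20 (adjusted p = 0.301 in edgeR), with 118 and 1144 reads in H460 and 7 to 20 in the other lines. DIO2, the deiodinase that makes T3 from its precursor, was set apart by line instead, with 1305 and 1628 reads in H460, then 23 and 19 for H1299 and 102 and 149 for A549. It was lower than in H460 by a log2 difference of -6.32 in H1299 (SE 0.263, edgeR adjusted p = 3.31e-05) and of -3.17 in A549 (SE 0.216, edgeR adjusted p = 0.000242).

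No thyroid hormone target gene passed the test. Of 8 genes, 7 were tested and 1 had an unadjusted edgeR p under 0.05. That gene was KLF9, a transcription factor gene known as a direct T3 target, with log2 changes of 0.31, 0.60, and 0.34 (adjusted p = 0.216 in edgeR). HR, a corepressor gene induced by T3 in brain, had -0.05, 0.88, and 0.44. Its H1299 value rests on 22 and 38 reads (interval 0.13 to 1.75), where H460 had 9808 and 8935. The list medians, over the 6 genes with reads in every library, were -0.04, 0.52, and 0.34. Of 12 partner and related receptors, 11 were tested and 4 (NR1D2, RARB, RARG, and PPARG, each with a positive estimate) had an unadjusted edgeR p under 0.05, with list medians of 0.13, 0.32, and 0.14. Between lines, 25 of 42 list genes passed in H1299 against H460, 24 in A549 against H460, and 32 in A549 against H1299. The shares over all genes in these comparisons were 50.7%, 35.3%, and 47.2%.

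The genes closest to each chosen receptor or subunit over the 6 libraries were found by the Euclidean distance between centred log2 values among 14463 genes, as a description of these 6 points, which share lines and treatment. For TBL1XR1 they were PTPN11 (distance 0.22), CHSY1 (0.322), and GPN3 (0.356), where the median over all genes was 1.91. PTPN11, a tyrosine phosphatase gene, had log2 changes of -0.80, -1.05, and -1.53, and CHSY1, a chondroitin synthase gene, had -0.94, -0.80, and -0.99. For THRB they were LOC105374986 (0.625), CNTNAP3 (0.761), and LOC101927345 (0.777), with a median over all genes of 3.94. These followed the high level of THRB in A549: CNTNAP3, a cell adhesion gene, had 4176 and 4687 reads in A549 and 781 to 1091 in the other lines. Its log2 changes after si-MALAT1 were 0.19, 0.61, and 0.02.

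In the annotation deposited with the table (GRCh38), TBL1XR1 (Gene ID 79718) spans chr3:177019344-177197482 on the minus strand with 14 transcripts, and THRB (Gene ID 7068) spans chr3:24117153-24495708 on the minus strand with 32. THRA (Gene ID 7067) lies at chr17:40062193-40093867, RXRA (6256) at chr9:134326455-134440586, and TBL1X (6907) at chrX:9463295-9719740, all on the plus strand. RXRB (6257) lies at chr6:33193585-33200991, NCOR1 (9611) at chr17:16029157-16216475, and GPS2 (2874) at chr17:7312661-7315360, all on the minus strand. The antisense genes THRB-AS1 and THRB-AS2 share no exonic base with THRB and had means of 2.17 and 0 reads. Genes elsewhere in the genome were searched for shared stretches of 50 bases, and overlapping genes, such as NR1D1 for THRA, were not counted. Such stretches made up 0.358% of TBL1XR1 transcripts, 0.584% of TBL1X, 1.87% of NCOR1, 3.9% of GPS2, and 0% of the 4 receptor genes.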

How the data were processed

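Per the labels and the study's methods, total RNA was depleted of ribosomal RNA, made into stranded libraries, aligned with HISAT2 2.1.0, and assembled with StringTie (1.3.4b in the submitters' processing notes). The study's methods name a later version of StringTie, and which was used is not settled here. The authors deposited counts, FPKM, and TPM per gene in 1 table. The counts and the TPM were used, the FPKM were not. The table's 18 columns of other samples were not used. The 8 genes and the lists were chosen with earlier results of these data known.

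Counts were scaled with RLE size factors, and changes were taken as log2(scaled count + 1) within each line, with exact 95% intervals. The control and the si-MALAT1 library of a line were a pair. Tests used edgeR 4.0.16 (quasi-likelihood, TMM, filterByExpr, Benjamini-Hochberg) in R 4.3.3, with DESeq2 1.42.0 as an alternative, and were tested on simulated data. Calls needed an adjusted p under 0.05, or, within a line, a fold change of 1.5. Named were the 8 genes, MALAT1, list genes called in a test or past the fold in the 3 lines, the 3 closest genes to THRB and TBL1XR1 with a mean count of at least 50, and overlapping genes. HDAC3, CORO2A, NCOA3, KAT2B, SLC7A5, SLC3A2, PRMT1, PPARGC1A, NCOA1, SLCO1C1, NR1D2, RARB, RARG, PPARG, KLF9, and HR were also named, after their values were seen. The 3' UTRs were read from the deposited annotation and GRCh38, using 1 transcript per gene. It was the transcript with an NM accession and the longest 3' UTR, and shorter 3' UTRs of a gene were not searched. Some items are not reported here.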

Additional observations from a re-analysis of the deposited data

Results flagged for a closer look

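NCOR1 changed in opposite directions in H460 (-0.21 on the log2 scale) and H1299 (0.49), a difference of 0.70, and the counting intervals of both exclude 0. TBL1X was likewise lower in H460 (-0.10) and higher in H1299 (0.17), a difference of 0.27. With 1 library per line and condition, neither difference was tested.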

How the results depend on the processing

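The changes were also taken with 10 added in place of 1, with TMM factors, and on log2(TPM + 1). In each of these, 0 of the 8 genes was at least 1.5-fold higher in the 3 lines, in place of 1. THRB in H460 came to 0.54, 0.57, and 0.07. On the last scale the 1 added exceeds its TPM in H460 (0.148 in control, 0.205 in si-MALAT1 cells), which pulls the value toward 0. TBL1XR1 stayed at least 1.5-fold lower in the 3 lines in each setting. Genes called between si-MALAT1 and control numbered 1 in edgeR, 1140 with DESeq2, 0 with every gene with at least 1 read, 0 with no replicate block (the pairing by line left out), and 0 to 163 without 1 line in turn. List genes called numbered 0 in edgeR, 4 with DESeq2, and 0 to 1 without 1 line. Without 1 library in turn, 3 to 6 of the 8 genes were called for H1299 against H460, and 1 to 6 for A549 against H460, and the genes called in all ran from 3736 to 8260 for A549 against H460 and from 5916 to 10755 for A549 against H1299. The line left with 1 library was then assumed to vary like the others. No value called changed direction. Why the numbers of genes called differed between settings was not tested. With 1 library per line and condition, no change within a line has a replicate check, and THRB counts under 100 in H460 and H1299 limit its precision.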
